A study of Mus musculus with 17 samples.

Results

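In control mouse epidermis, 760 of the 2140 H3K27ac peaks were distal and clustered. A distal peak lay more than 1 kb from both ends of every protein-coding gene of GRCm38, and a clustered one had another distal peak of the same list within 12500 bp, measured edge to edge. Stitching the 760 peaks gave 261 clusters, which were ranked by their number of peaks and then by span. Membership was chosen by the measured positions of the peaks and the gaps between them, so cluster number, size, span and spacing are descriptions and no test was made on them. The rest of the list comprised 606 isolated distal peaks, 773 peaks within 1 kb of a gene end and 1 peak on a sequence with no placed gene.

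The study used chromatin immunoprecipitation followed by sequencing on single-cell suspensions of epidermis from female mice, with antibodies against H3K27ac and against UTX, the protein encoded by Kdm6a. Utx-deleted mice had the genotype Cre+; Utx fl/fl, in which Krt14-Cre removes Kdm6a from tissues that express keratin 14, the keratin of basal keratinocytes. Control mice had the genotype Cre-; Utx fl/fl, so both groups carried floxed Utx alleles. The labels listed 3 Utx-deleted and 2 control H3K27ac libraries, and 3 UTX and 3 input libraries per genotype, 17 libraries in all. Peaks were called on the merged libraries of a group, so each of the 4 lists is a single set of positions with no replicate error, and peak heights and read depth are unknown here. The labels' protocol gives 3 samples for every group, and whether the merged control H3K27ac list holds a further library is not known.

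H3K27ac is acetylation of histone H3 at lysine 27, a mark of active enhancers and promoters that is laid down by the acetyltransferases p300 and CBP. Dense groups of acetylated enhancers, often called super-enhancers or stretch enhancers, are known for lying near genes that define a cell type. UTX removes methyl groups from the same lysine and is also a subunit of the COMPASS-like complexes that act at enhancers. In the epidermis, basal keratinocytes adhere to each other and to the basement membrane, and their daughters move outward while they make keratins, desmosomes and barrier lipids.

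Each cluster was assigned to the protein-coding gene that held more of its members than any other gene, even where most members lay outside it. Ties went to the gene with more overlapped bases, and a cluster with no member in a gene went to the nearest gene. The assigned gene need not be the gene that a cluster acts on. The 261 clusters were assigned to 238 genes, 1.09% of the 21887 protein-coding genes. For comparison, 818 genes, 3.74%, had a control H3K27ac peak within 1 kb of an end.

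Some clusters lay beside microRNA genes with known roles in epithelia, and their mature sequences are shown because the microRNAs, rather than the assigned protein-coding genes, are the better known products of these loci. Of the 1072 microRNA genes of RefSeq, 14 lay within 12500 bp of a cluster, at 9 clusters. No such count for isolated or gene-end peaks is given here, so the number shows no link between clusters and microRNAs. A pair of peaks at chr4:156058976-156060469, assigned to Ttll10, lay 3226 bp from Mir200b, 3991 bp from Mir200a and 4989 bp from Mir429, a family known for keeping cells epithelial by repressing Zeb1 and Zeb2. A pair at chr11:75460725-75462053, assigned to Wdr81, lay within 1 kb of the start of Mir22hg, the host gene of Mir22, and 1663 bp from the Mir22 hairpin. The 3-peak cluster at chr8:84191524-84203287, assigned to Zswim4, lay 5231 bp from Mir23a, 5385 bp from Mir27a and 5528 bp from Mir24-2. Sequences are from RefSeq (GRCm38.p6), 5′ to 3′, with the seed, bases 2 to 8, in capitals. The first pair shares the seed AAUACUG, and each of the others has a seed of its own.
miR-200b-3p: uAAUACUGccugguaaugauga
miR-429-3p: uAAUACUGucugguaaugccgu
miR-200a-3p: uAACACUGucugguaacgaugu
miR-22-3p: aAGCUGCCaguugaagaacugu
miR-23a-3p: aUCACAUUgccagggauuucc
miR-27a-3p: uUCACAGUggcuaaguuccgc
miR-24-3p: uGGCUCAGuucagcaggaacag

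Some members overlapped gene starts that lie away from the outer ends of a gene, or the starts of long noncoding RNAs, and these windows are the only stretches of the member peaks whose sequence was at hand. RefSeq windows of 300 bases, from 250 before to 50 after a start, overlapped a clustered peak in 22 cases. The window of Gm14206, a long noncoding RNA (chr11:100289817-100290116, minus strand), lay wholly within a 620 bp peak of the cluster assigned to Krt42. The window of the only RefSeq start listed for Baz2b, which encodes a bromodomain protein (chr2:60125691-60125990, minus strand), lay wholly within a 439 bp peak. The gene record runs 84173 bp beyond this start, so the peak counted as distal. The window of an inner start of Rtkn, which encodes rhotekin (chr6:83136834-83137133, plus strand), lay with 293 of its 300 bases in a 294 bp peak. Capitals mark a match to TGANTCA, the core recognised by AP-1, which is the same on both strands. It occurred once in these windows, in Rtkn, 21 bases before the start.
Gm14206: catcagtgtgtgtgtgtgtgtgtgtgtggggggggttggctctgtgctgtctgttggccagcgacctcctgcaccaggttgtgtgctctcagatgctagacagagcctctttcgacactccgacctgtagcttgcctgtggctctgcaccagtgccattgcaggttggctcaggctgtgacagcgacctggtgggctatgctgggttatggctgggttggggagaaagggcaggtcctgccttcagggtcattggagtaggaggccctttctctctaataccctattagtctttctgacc
Baz2b: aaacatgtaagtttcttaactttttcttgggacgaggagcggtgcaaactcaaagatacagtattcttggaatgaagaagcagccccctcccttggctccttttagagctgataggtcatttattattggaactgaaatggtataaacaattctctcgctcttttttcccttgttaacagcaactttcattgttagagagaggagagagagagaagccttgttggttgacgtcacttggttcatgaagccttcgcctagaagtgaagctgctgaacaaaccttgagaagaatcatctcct
Rtkn: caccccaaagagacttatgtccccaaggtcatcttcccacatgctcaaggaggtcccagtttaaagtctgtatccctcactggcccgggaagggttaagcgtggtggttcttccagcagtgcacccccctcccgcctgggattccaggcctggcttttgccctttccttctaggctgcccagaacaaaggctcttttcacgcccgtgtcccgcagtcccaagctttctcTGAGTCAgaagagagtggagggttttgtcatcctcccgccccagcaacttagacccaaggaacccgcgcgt

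A match to TGANTCA was present in 1 of the 22 windows that overlapped a clustered peak (4.55%), against 3 of 23 windows that overlapped an isolated distal peak (13.0%) and 11 of 241 that overlapped a gene-end peak (4.56%). Of all 32851 RefSeq windows of the same length, 7.81% held a match. With windows this few, the shares of clustered and isolated peaks rest on 1 and 3 matches.

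Most clusters were small. Of the 261, 150 held 2 peaks, 59 held 3 and 52 held 4 or more, and these 52 held 283 of the 760 members (37.2%). Clusters of 6 or more peaks numbered 17. The median span was 3178 bp, with quartiles of 1443 and 7933 bp and a range of 455 to 32491 bp. Peaks filled 258171 bp of the summed span of 1424247 bp, or 18.1%. The 499 gaps within clusters had a median of 817 bp, and 54.3% of them were at most 1000 bp. Just inside the limit, the widest gaps were 12458 bp between peaks assigned to Ndel1 and Rnf222, 12168 bp at Sar1b and 12028 bp at Limd1. Just outside it were gaps of 12774 bp between peaks of Clic1 and Mpig6b, 13105 bp between Map7d1 and Trappc3, and 13482 bp between the pair of clusters assigned to Tnfaip3.

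**Figure D1:**
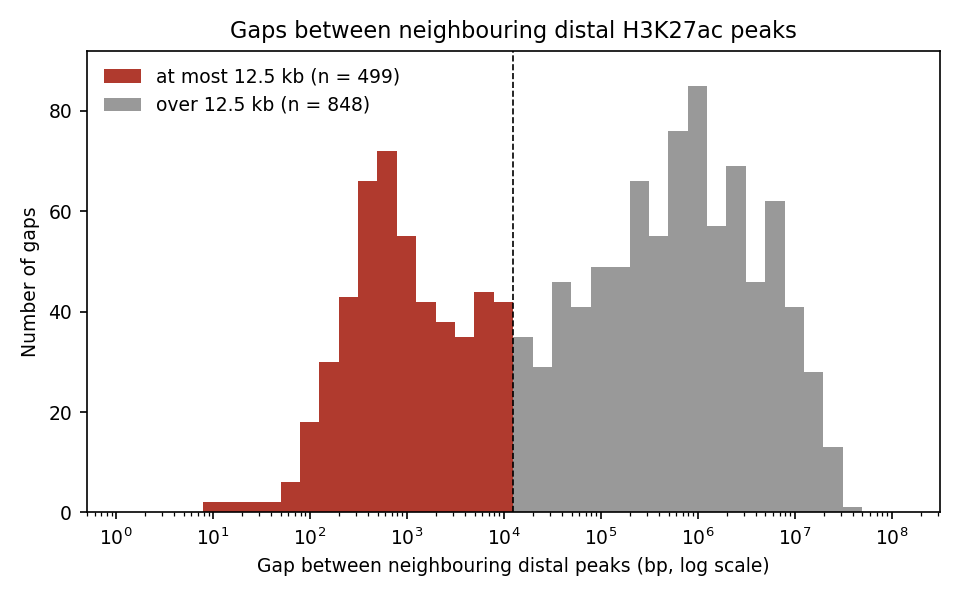
Number of gaps between neighbouring distal H3K27ac peaks of control epidermis by gap length (bp, log axis), with gaps of at most 12500 bp in red, longer ones in grey and the limit as a dashed line. The 499 gaps within clusters have a median of 817 bp, and the gaps next to the limit are 12458 bp inside it and 12774 bp outside it.

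The cluster with most peaks was assigned to a keratin gene. It held 14 peaks over 13934 bp at chr15:101966340-101980273, inside the RefSeq record of Krt78, a type II keratin of differentiating epithelium. The peaks were 199 to 783 bp wide, the gaps at most 2395 bp, and 36.5% of the span lay in peaks. The record runs 42337 bp beyond the only RefSeq start of Krt78 with a window, and all 14 peaks lay upstream of that start, at 12053 to 25728 bp. No peak of the list lay within 1 kb of an end of the record.

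Several of the other large clusters were assigned to cell adhesion genes. The cluster ranking next was that of Cdh1. This gene, which encodes E-cadherin of the adherens junction, held 12 peaks over 19718 bp at chr8:106604421-106624138, all inside the gene, and had a further peak at a gene end. The first of the 12 lay 1071 bp from the gene end, little beyond the limit for a distal peak. Jup, which encodes plakoglobin of desmosomes and adherens junctions, was assigned 9 peaks over 24823 bp at chr11:100388582-100413404. Of these, 4 lay inside Jup and 5 upstream of its RefSeq start, some of them in the neighbouring gene P3h4. Cd9, a tetraspanin of the cell surface, held 7 peaks over 10197 bp at chr6:125482916-125493112, including one of 1005 bp, and 2 more formed a cluster 19505 bp upstream. Dsp, which encodes desmoplakin, had 6 peaks at chr13:38145332-38156077 that flanked its start, 2 upstream and 4 inside, with a pair of gene-end peaks between them. A further 3 peaks of Dsp lay 23754 bp upstream.

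The longest cluster was that of Npepps, a cytosolic aminopeptidase, with 10 peaks over 32491 bp at chr11:97277705-97310195. Only 1 of the 10 lay inside Npepps and the other 9 lay upstream of its start, the last of them within 1 kb of the start of the long noncoding RNA Gm31005. Clip1, which encodes a protein of growing microtubule ends, had 8 peaks over 27839 bp, with 4 on either side of its start. The third longest was a 4-peak cluster of 25649 bp assigned to Mapkapk3, a kinase activated by MAP kinases. Sgms1, which encodes a sphingomyelin synthase, held 8 peaks over 17885 bp, all inside the gene and at least 45893 bp from its nearest RefSeq start. Ahnak, which encodes a large scaffold protein, was assigned 7 peaks over 17091 bp, 3 upstream of its start and 4 downstream. Nsf, an ATPase of vesicle fusion, held 6 peaks over 6322 bp, all over 50 kb from its start.

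**Figure D2:**
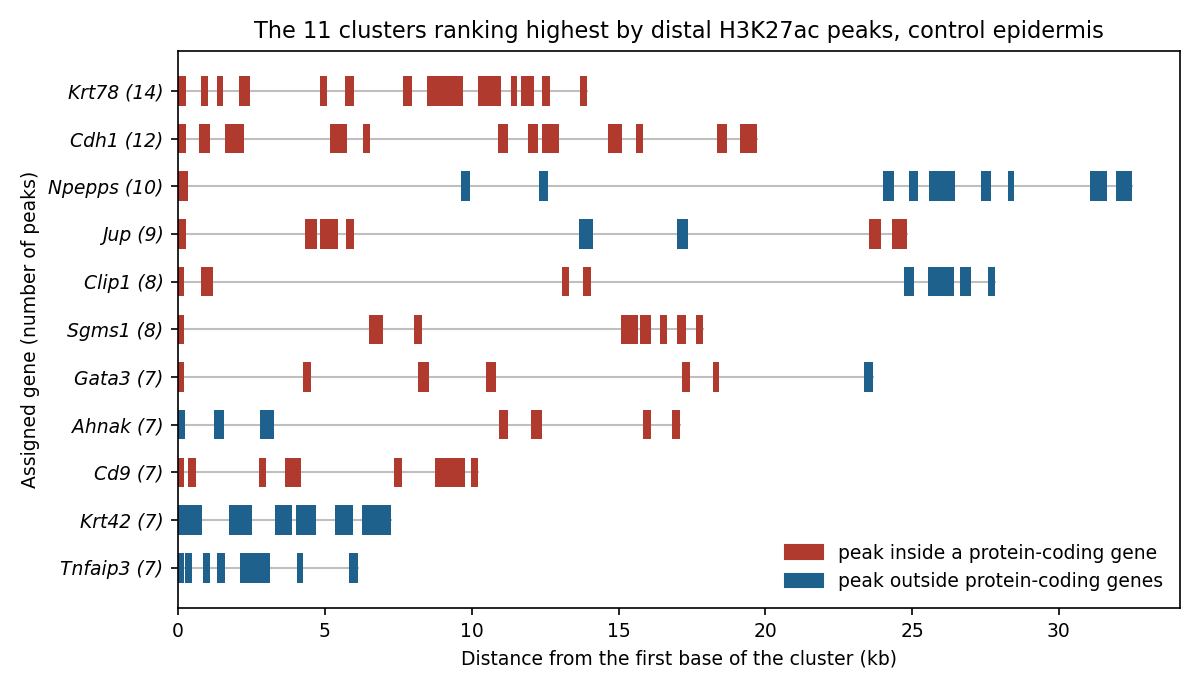
Peaks of the 11 highest-ranking clusters, drawn to scale by distance from the first base of the cluster (kb), 1 row per cluster with the assigned gene and its number of peaks. Red peaks lie inside a protein-coding gene and blue peaks outside; Krt78 and Cdh1 are red throughout, while the clusters of Krt42 and Tnfaip3 are blue throughout and span 7234 and 6114 bp.

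Other large clusters lay wholly outside protein-coding genes. Krt42, a type I keratin gene, had 7 peaks 14356 bp upstream, over 7234 bp at chr11:100284307-100291540. Of that span, 61.2% lay in peaks, and members fell inside the long noncoding RNA gene Gm14206, whose start window is printed above. Krt80, a type II keratin gene, was the nearest gene to 6 peaks over 7228 bp at a distance of 11915 bp, including peaks of 1015 and 953 bp, and 49.1% of the span lay in peaks. Tnfaip3, which encodes the NF-kB feedback inhibitor A20, had 7 peaks over 6114 bp, 43393 bp upstream, and 3 more 20186 bp upstream. Cd69, a lymphocyte activation gene, was 29787 bp from 6 peaks that lay at the long noncoding RNA gene 2310001H17Rik.

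Gata3, a zinc finger transcription factor needed for hair follicle and barrier formation, had more clusters and more clustered peaks than any other gene, 16 peaks in 4 clusters over 536607 bp. Its main cluster of 7 peaks at chr2:9865614-9889281 straddled the RefSeq start, with 4 peaks downstream of it and 3 upstream, the nearest at 2148 bp. A cluster of 5 peaks lay 496993 bp from the gene on its downstream side and a pair 481171 bp away on the same side, near each other at a gap of 13496 bp. Another pair lay 52682 bp from the gene, also on the downstream side. Gata3 had no peak at a gene end and 3 isolated distal peaks. Klf6, a zinc finger transcription factor, had 3 clusters of 2 peaks, one inside the gene, one 15911 bp upstream and one 322285 bp downstream. The predicted gene Gm38821 also had 3 clusters. A further 16 genes had 2 clusters and 219 had 1. Besides Tnfaip3, Cd9 and Dsp, the 16 included Clec2g with 8 peaks, Niban2 and Perp with 6 each, and Arf6, Dusp1, Ptp4a2 and Zswim4 with 5 each. Arid5b, Bcl6, Parn, Ptges, Ptpn13 and Slc24a3 had 4 peaks each. Of 20 pairs of clusters within 50 kb of each other, 15 had the same assigned gene.

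Clusters of 5 peaks covered a wide range of functions. They were assigned to Foxn3, a forkhead repressor, Csnk1a1, a casein kinase of WNT signalling, Nr1d1, a repressor of the circadian clock, and Pecam1, an endothelial adhesion molecule. The others were those of Zdhhc5, a palmitoyltransferase, Trim29, a tripartite motif protein, Chit1, a chitinase, Kifc3, a kinesin, Mcc, Il23r, a cytokine receptor subunit of lymphocytes, and the distant cluster of Gata3. The 5 peaks of Il23r lay within 3132 bp inside the gene, and those of Foxn3 were spread over 20259 bp. Skint4, a skin-expressed immunoglobulin-like gene, had 4 peaks over 22537 bp. Kdm6b, the paralogue of Kdm6a, held a cluster of 4 peaks over 7933 bp, a gene outside the first 30 ranks that was picked after its values were seen.

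**Figure D3:**
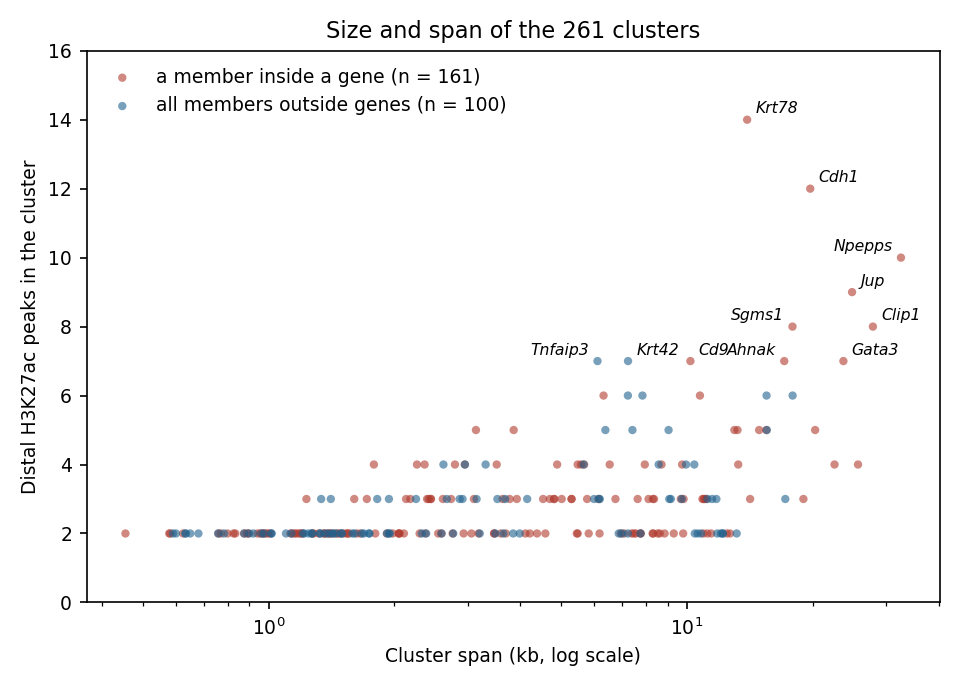
Number of distal H3K27ac peaks in each of the 261 clusters against its span (kb, log axis), in red where a member lies inside a protein-coding gene and in blue where all lie outside, with the 11 highest-ranking clusters named. Pairs and triplets make up most clusters, and Npepps is the longest while Krt78 has the most peaks.

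Among the fixed gene lists, cell junction and adhesion genes and actin cytoskeleton genes had the highest shares with a cluster. Of 46 junction and adhesion genes, 11 (23.9%) had a cluster, with 60 peaks in all, against 1.09% of all protein-coding genes. A gene-end peak was also found at 11 (23.9%), against 3.74% of all protein-coding genes, so a high share was not particular to clusters. Beside Cdh1, Jup, Cd9 and Dsp, the genes with a cluster included Perp, a desmosome-associated p53 target with 6 peaks. Cldn1, a claudin of tight junctions, had 3, and Ctnnd1, Dsc3, Dsg1a and Nectin1 had 2 each. Of 37 actin cytoskeleton genes, 11 (29.7%) had a gene-end peak and 9 (24.3%) a cluster. Those with a cluster were Ahnak, Anxa2, which encodes annexin A2, with 4 peaks, and the crosslinker gene Actn4 and Anxa1 with 3 each. Ezr, Iqgap1, Myo1e, S100a10 and Tpm1 had 2 each. These lists were made with earlier results of the same data known and are not independent evidence of a theme.

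Of 51 genes of the immediate-early response and of NF-kB feedback, 13 (25.5%) had a gene-end peak and 9 (17.6%) a cluster. Tnfaip3 had 10 peaks, the phosphatase gene Dusp1 5, the repressor gene Bcl6 4, the clock gene Per1 and the kinase gene Pim1 3 each, and Btg1, Dusp16, Nfkbia and Zfp36 2 each. Of 46 epidermal transcription factors, 7 (15.2%) had a gene-end peak and 6 (13.0%) a cluster. After Gata3 and Klf6, those with a cluster were Tfap2a with 4 peaks, the grainyhead-like genes Grhl1 and Grhl3 with 3 each, and Cebpb with 2. Of the 20 AP-1 genes, Fosb had a cluster of 2 peaks, and 7 had a peak at a gene end. Of 50 barrier lipid genes, 5 (10%) had a gene-end peak and 4 (8%) a cluster. Those with a cluster were Sgms1, Abca12, a lipid transporter of lamellar granules with 4 peaks, the acyl-CoA synthetase gene Acsl5 with 3, and the desaturase gene Scd1 with 2. Of 75 keratin and cornified envelope genes, 3 (4%) had a gene-end peak and 5 (6.67%) a cluster. Krt78 and Krt80 accounted for 20 of the 26 clustered peaks of this list. The list does not hold Krt42, so its 7 peaks are not in this count. The protease inhibitor gene Spink5 and the small proline-rich genes Sprr2a1 and Sprr2a3 had 2 each. The Sprr2a genes are near-identical copies, so reads may have been split between them.

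**Figure D4:**
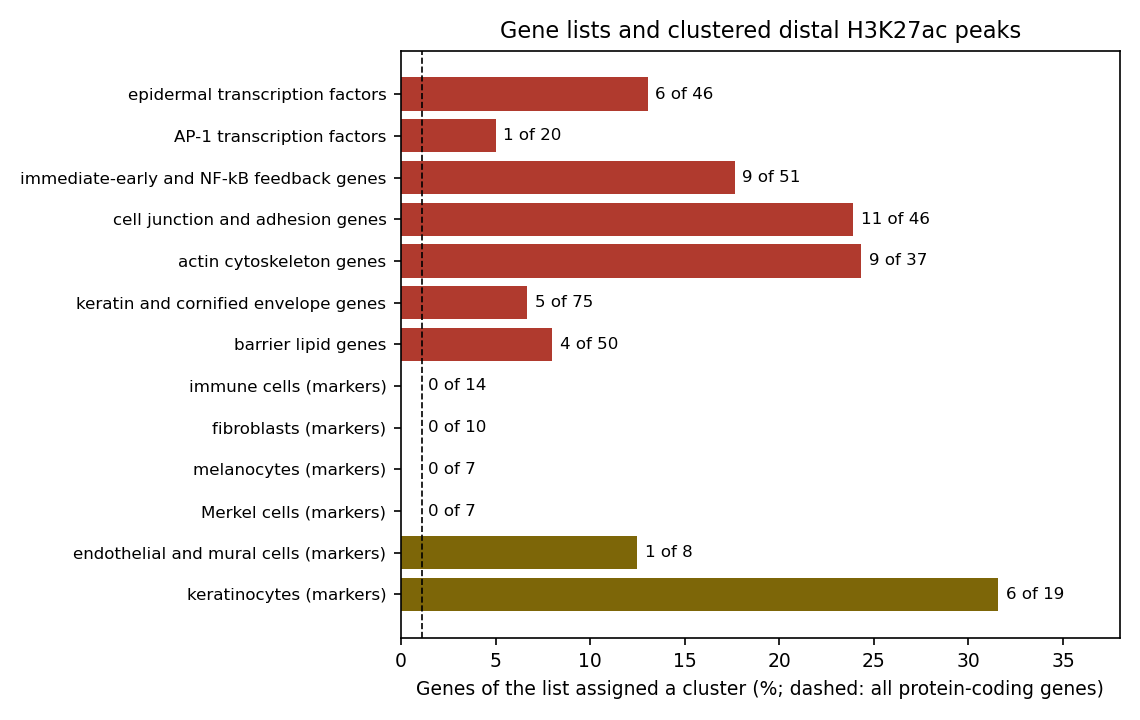
Percent of the genes of each list that were assigned a cluster, with the numbers beside the bars, gene lists in red, cell type markers in brown and the 1.09% of all protein-coding genes as a dashed line. Keratinocyte markers, actin genes and junction genes have the longest bars, and immune, fibroblast, melanocyte and Merkel cell markers are at 0.

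The cell type label was set against marker genes. Of 19 keratinocyte markers, 6 had a cluster (Dsp, Jup, Perp, Tfap2a, Grhl1 and Grhl3) and 9 had a peak at a gene end. The markers without a cluster included the keratin genes Krt5, Krt14, Krt15, Krt1 and Krt10, and also Trp63, Itga6, Itgb4, Col17a1 and Klf4. None of 14 immune, 10 fibroblast, 7 melanocyte or 7 Merkel cell markers had a cluster or a peak at a gene end. Of all protein-coding genes, only 1.09% had a cluster and 3.74% a gene-end peak. At such shares, marker lists this short can lack both, so they cannot show that these cell types were absent. Of 8 endothelial and mural cell markers, Pecam1 had a cluster, with all 5 peaks inside the gene, and the others, including Cdh5, Kdr and Vwf, had none. Il23r and Cd69 are also genes of lymphocytes, and the part of other cell types in these clusters was not tested.

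Against isolated distal peaks, clustered peaks had a lower share inside protein-coding genes and a higher share near a peak at a gene end. Inside a gene were 434 of 760 clustered peaks, 57.1% (Wilson 95% interval, for counting error only, 53.6 to 60.6%), and 389 of 606 isolated peaks, 64.2% (60.3 to 67.9%). A gene-end peak lay within 12500 bp of 23.8% of clustered peaks (20.9 to 27%) and of 11.2% of isolated peaks (8.95 to 14%). Inside a long noncoding RNA gene lay 17.4% of clustered and 15.51% of isolated peaks. Within 1 kb of a RefSeq start of a protein-coding gene, away from its outer ends, lay 8.55% of clustered and 13.9% of isolated peaks. The median distance to a gene end was 10551 bp for clustered and 10688.5 bp for isolated peaks. Neighbouring peaks share their locus and are not replicates, so these differences were not tested, and whether the intervals overlap is not a test of them.

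The share of clusters whose gene also carried H3K27ac at an end was higher than that of isolated peaks. Some clusters share a gene, and a cluster holds several peaks where an isolated peak is single, so the difference was not tested. The assigned gene had a gene-end peak for 86 of 261 clusters, 33.0% (27.5 to 38.9%), and for 95 of 606 isolated peaks, 15.7% (13.0 to 18.8%). The share was 42.3% for clusters of 4 or more peaks, 42.4% for those of 3 and 26.0% for pairs. It was 34.2% for clusters inside a gene and 31.0% for those outside, against 15.9% and 15.2% of isolated peaks. With a distal limit of 5 kb, it was 26.0% for clusters and 14.2% for isolated peaks. Among the 17 clusters of 6 or more peaks, those whose assigned gene had no gene-end peak included Krt78, Clip1, Sgms1, Gata3, Ahnak, Krt42, Cd69, Krt80 and Nsf.

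**Figure D5:**
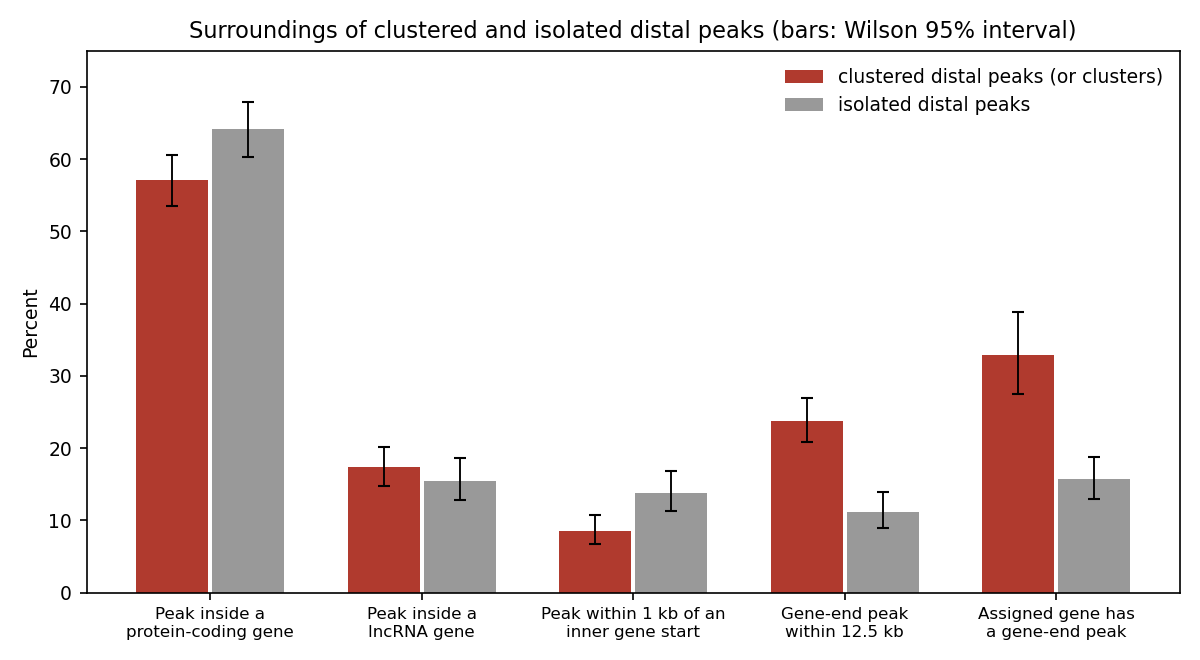
Percent of clustered distal peaks, or of clusters in the last group, in red and of isolated distal peaks in grey, with Wilson 95% intervals for counting error as error bars. The red bar is lower for peaks inside genes (57.1% against 64.2%) and higher for a gene-end peak within 12500 bp (23.8% against 11.2%) and at the assigned gene (33.0% against 15.7%).

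Clusters that reached into a gene lay more often towards the start side of the gene record than towards its end. Of 161 such clusters, 128 had a gene with a known strand. Each was placed by its centre along the record, and a centre outside the record was counted at the nearer outer end. So counted, 58 lay in the fifth on the start side, followed by 28, 18, 17 and 7 towards the end. The outer end of a record can lie far from the RefSeq start, and isolated peaks were not placed in this way. Against the first RefSeq start, 91 of the 128 had all members downstream, 32 had members on both sides and 5, including Krt78, had all members upstream. Genes with a cluster inside had a median length of 42621.5 bp, those with an isolated distal peak and no cluster 44009 bp, and all protein-coding genes 17169 bp. Of the 100 clusters outside genes, 46 lay upstream of the assigned gene at a median of 10582.5 bp and 23 downstream at a median of 30470 bp. The strand was unknown for 31, and 21 of the 100 lay more than 50 kb from the gene.

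Median peak widths differed little between the classes, while the share of peaks over 600 bp was highest among clustered peaks. The median width was 285.5 bp for clustered peaks (quartiles 233 and 397 bp), against 263.5 bp for isolated distal peaks and 272 bp for gene-end peaks. Peaks over 600 bp made up 6.18% of clustered, 2.48% of isolated and 3.88% of gene-end peaks. In clusters of 4 or more the median was 302 bp and 9.89% exceeded 600 bp. The widest member, 1798 bp, lay inside Clec2g, a lectin-like gene, and the next were 1228 bp near Tuba1a, 1023 bp near Tnfaip3, 1015 bp near Krt80 and 1005 bp in Cd9. How far peaks were split or merged by the peak calling sets both width and peak number, and this could not be examined without the signal.

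The remaining comparison sets the clusters beside the H3K27ac peaks called after Utx deletion and beside the UTX peaks of both genotypes. None of the 48 H3K27ac peaks of Utx-deleted epidermis lay on a control cluster or within 12500 bp of one, and the nearest was 195251 bp away. Of the 48, 1 overlapped an isolated distal peak of control epidermis and 0 overlapped a gene-end peak, so the lack of overlap was not particular to clusters. The Utx-deleted list is far shorter than the control list of 2140 peaks, from merged libraries of unknown depth, so loss of acetylation at the clusters and fewer peaks called over the whole genome cannot be told apart. In whole epidermis, fewer cells with the mark and less of the mark per cell cannot be told apart either. Under the same rule, 25 of the 41 distal peaks in the Utx-deleted H3K27ac list were clustered, in 9 clusters of at most 5 peaks, and 13 of these 25 lay on chromosome 4.

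Few UTX peaks of either genotype overlapped H3K27ac peaks of any class. The UTX antibody also gave 213 peaks in Utx-deleted epidermis, and how far its peaks mark bound UTX was not tested. Few overlaps therefore do not show that UTX was absent from the clusters. None of 213 UTX peaks of Utx-deleted epidermis and 3 of 547 UTX peaks of control epidermis lay on a cluster span. Of the control peaks, one lay in the cluster of Actn4, 4182 bp from a member, and one on a member inside Acsl5. Counted on the peaks themselves, clustered members were overlapped by 0 Utx-deleted and 1 control UTX peak, and isolated distal peaks by 2 and 3. Gene-end peaks were overlapped by 0 of either list. Within 12500 bp of a cluster span lay 1 Utx-deleted and 5 control UTX peaks, and within 12500 bp of an isolated distal peak 3 and 8. The control peaks near but not on a cluster span were 155 bp from the cluster of Zdhhc5 and 2271 bp from that of Arf6, a small GTPase of membrane traffic. The Utx-deleted peak, 2413 bp from the same Arf6 cluster, overlapped the control peak there. The median distance to the nearest control UTX peak was 1120612 bp from clusters and 1173152 bp from isolated distal peaks. UTX peaks of Utx-deleted epidermis clustered among themselves in 75 of 190 distal cases (39.5%), in clusters of up to 16, and those of control epidermis in 8 of 530 (1.51%), always as pairs. No control H3K27ac cluster overlapped a member of these UTX clusters.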

How the data were processed

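H3K27ac and UTX were mapped by ChIP-seq in epidermis of Utx-deleted and control mice. The authors deposited 4 peak lists, 1 per antibody and genotype, which hold only positions (chromosome, first and last base). MACS2 called narrow peaks on merged samples of each group, per the file headers. Per the submitters' processing notes, FastQC, Bowtie2, deepTools and bedtools are further tools, without versions given. Both mm39/GRCm39 and mm10/GRCm38 appear there as builds. On GRCm38 ends of 21887 RefSeq protein-coding genes, 36.1% of control H3K27ac peaks lay within 1 kb, against 10.1% and 9.68% after moving them 10 kb to either side, so GRCm38 was used. Coordinates are 1-based.

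Distances run from peak edges. Strand came from RefSeq start windows, which 178 of the 238 cluster genes had. Shares have Wilson 95% intervals, which cover counting error only. No test was made, since lists merge libraries and positions chose the members. Members and gene lists were chosen with earlier results of these data known. Of the immune and the keratin lists, 1 and 2 symbols had no match. Named genes are those of up to 30 clusters of 4 or more peaks, of the longest, of those near UTX peaks, of each list's leading members, of several clusters, and at the 12500 bp limit. A few results that this rule would name were left out. MicroRNAs, printed windows and the widest peaks were picked after values were seen. Stitching was tested on simulated data. The tools were matplotlib 3.10.9, scipy 1.17.1, pandas 2.3.3 and numpy 2.4.6 under Python 3.11.15. Per-sample columns left unused numbered 0.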

Additional observations from a re-analysis of the deposited data

How the results depend on the processing

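Of 80 values under alternative settings, 57 stayed within the interval of the reported value (for counts, within 1.5 times) and 23 moved. Only the difference in median peak width could have changed sign, and it kept its sign under every setting. The values for chromosomes 1 to 19 equal the reported ones by construction, because chromosome X held no distal peak. No paired analysis was possible because the libraries of a group were merged before calling. For the same reason no library could be left out, and with no q or height a stricter threshold was not run. With gaps of at most 5 kb, the median span was 1965.5 bp and 47.5% of distal peaks were clustered. With gaps of at most 25 kb, these values were 4703 bp and 59.7%. Both follow from the construction, and 85.4% and 100% of the members were kept. With a distal limit of 500 bp, the share of clusters whose gene has a gene-end peak was 39.9%, and with 2.5 kb the share of members inside genes was 52.7%. With 5 kb, 486 peaks in 169 clusters were left, 33 of them with 4 or more peaks, and 52.7% of distal peaks were clustered, 51.4% lay inside genes and 26.0% of clusters had a gene with a gene-end peak. In the wider 50% of the peaks, 320 formed 122 clusters, 15 with 4 or more peaks, 46.7% of distal peaks were clustered and 53.4% lay inside genes. The limits of 2.5 and 5 kb and the wider peaks leave fewer peaks by construction, that of 500 bp admits more, and other causes were not tested. Counting ends of long noncoding RNA genes too, an alternative chosen after seeing the data like that of peak midpoints, left 653 members (85.9%), of which 61.3% lay inside protein-coding genes. Control UTX peaks on a member numbered 1 and within 12500 bp of a span 5, and Utx-deleted UTX peaks within 12500 bp numbered 1. Of the 20 highest-ranking clusters, 13 were among the 20 longest and 0 among the 20 densest in peaks per kb. Depth is unknown, so an absent peak shows only that none was called.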

Other observations

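Chromosome 11 held 98 of the 760 clustered peaks (12.9%), beside 147 of the 1366 distal peaks and 261 of all 2140 peaks. Its 29 clusters included those of Npepps, Jup, Krt42, Nsf, Nr1d1 and Pecam1. Of its distal peaks 66.7% were clustered, as on chromosome 5, with 65.85% on chromosome 6 and 55.64% over all distal peaks. On chromosome 16 the share was 28.3% and on chromosome 14 it was 33.3%, and neither had a cluster of 4 or more peaks. Chromosome X held 5 peaks, all near gene ends, and no cluster. Peaks per chromosome share loci, and these shares were not tested.

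In the 111 clusters of 3 or more peaks, inner members had a median width of 297.5 bp (238 peaks) and outer members 287.5 bp (222 peaks), and the widest peak was an inner one in 52. A gene-end peak lay between the members of 15 of the 261 clusters, at Npepps, Jup, Dsp, Nr1d1 and Mapkapk3 among the larger ones. In the Clec2g cluster, both mature arms of Mir7649 lay in a member peak, as did part of Mir1894 in the 3-peak cluster of Ppp1r10, which encodes a regulatory subunit of protein phosphatase 1.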
